A study of Mus musculus with 16 samples.

Results

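Splenic marginal zone-like B cells are B cells of the spleen that carried RNA of Cr2 and Mzb1 and no detected RNA of Fcer2a. They were chosen by their unique molecular identifiers (UMIs), each of which marks a captured RNA molecule, in the libraries of sorted splenic CD45+ cells. A barcode, the tag that stands for a cell, was a member when it had at least 1 UMI of Cd79a, at least 1 of Cr2 and at least 1 of Mzb1. It also had 0 UMIs of Fcer2a, 0 over Cd3e, Cd3d and Cd3g, at most 2 of Lyz2 and 0 over the cycle genes Mki67, Top2a, Rrm2 and 2810417H13Rik. This gave 766 members among 5845 splenic B cells, 8686 splenic CD45+ barcodes and 37609 barcodes in the 16 libraries of the series. The members were therefore selected on Cr2, Mzb1, Cd79a and Fcer2a, and the levels of those genes are given as a description.

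The study measured RNA in cells of MC38 tumors, a mouse colon carcinoma line grown under the skin, and of the spleens of the same kind of mice. The female mice were *Aire*+/+ or *Aire*-/- littermates on a C57BL/6 background, 8 weeks old, and the *Aire*-/- animals carried the inactivated Aire gene in the germ line. They received an isotype control antibody or anti-PD1, an antibody that blocks the receptor PD1, and organs were taken on day 19 after tumor implantation. Spleens were pooled within a condition, so that each of the 4 combinations of genotype and antibody gave 1 library of sorted splenic CD45+ cells. All animals carried tumors, and no library came from a tumor-free mouse. Sets of 4 values are ordered by genotype, *Aire*+/+ before *Aire*-/-, and within a genotype with isotype before anti-PD1. With 1 library per condition the differences have no replicate check, and no test was run. The intervals given are exact 95% intervals (Clopper-Pearson for shares, Poisson for sums, conditional for ratios) and cover counting error only.

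Marginal zone B cells lie at the border of the white pulp of the spleen, where blood passes slowly and brings particles and microbes to them. They carry much complement receptor 2, the product of Cr2, and much surface IgM, bind blood-borne antigen and complement-coated particles, and turn quickly into antibody-secreting cells. Their formation needs Notch2 signals, and they are held in place by sphingosine-1-phosphate receptors and integrins, whereas follicular B cells carry the IgE receptor CD23, the product of Fcer2a, and recirculate through lymph. Aire, a transcription regulator of the thymus, drives the display of tissue antigens to developing T cells.

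The members numbered 203, 178, 182 and 203 in the 4 libraries, which held 2119, 2117, 2048 and 2402 barcodes. The libraries held 12181206, 10987970, 11227539 and 12636201 UMIs, of which the members held 1406586, 1155943, 1221779 and 1345134. Members were deeper than follicular-like B cells, defined below as B cells with Fcer2a. The median member had 6651, 6180.5, 6304 and 6146 UMIs, against 4018, 4052, 4303.5 and 4198 in follicular-like cells and 5831.5, 5436, 5528 and 5205 in T cells. The rule asks for UMIs of several genes, which deeper cells meet more readily. B cells that met every other condition but had 1 UMI of Fcer2a had medians of 4431, 4527, 4600.5 and 4687 UMIs. With 2 or more UMIs of Fcer2a the medians were 4392, 4558, 4817 and 4534. The part of the rule in the gap between members and follicular-like cells was not tested.

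Some barcodes occurred in more than 1 splenic CD45+ library, between 3 and 16 for each pair of libraries. Of the members, 10 had a barcode found in another of these libraries and 40 had a barcode found in another of the 16 libraries. A single barcode was a member in 2 libraries, *Aire*+/+ anti-PD1 and *Aire*-/- isotype. Aire itself had 2, 5, 4 and 0 UMIs in the libraries and 0, 0, 1 and 0 in the members, too few to check the genotype labels, and a 3′ tag may lie outside the deleted part. Xist, which female cells express from the silent X chromosome, had 890, 683, 691 and 718 UMIs in the members, and Ddx3y, Eif2s3y, Kdm5d and Uty of the Y chromosome had 0.

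The members formed a similar share of B cells in the 4 conditions. A B cell was a barcode with at least 1 UMI of Cd79a that met the Cd3 and Lyz2 limits. The share was 14.6% (interval 12.8 to 16.6) in *Aire*+/+ isotype, 12.5% (10.8 to 14.3) in *Aire*+/+ anti-PD1, 13.6% (11.8 to 15.6) in *Aire*-/- isotype and 12.0% (10.5 to 13.6) in *Aire*-/- anti-PD1. The intervals of all 4 libraries overlapped.

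The ratio of *Aire*-/- to *Aire*+/+ was 0.930 (0.757 to 1.14) under isotype. Under anti-PD1 it was 0.963 (0.784 to 1.18), and on the other side of 1 at 1.13 (0.895 to 1.43) with cells thinned before the rule, 1.04 (0.877 to 1.23) with at most 1 UMI of Fcer2a and 1.01 (0.818 to 1.24) as a share of all barcodes. All of these intervals include 1. Anti-PD1 libraries had the lower share in both genotypes. The ratio of anti-PD1 to isotype was 0.852 (0.693 to 1.05) in *Aire*+/+ and 0.883 (0.719 to 1.08) in *Aire*-/-. Both intervals of the main setting include 1, but under some other settings they did not. In *Aire*+/+ the ratio was 0.690 (0.546 to 0.871) with cells thinned before the rule, 0.787 (0.623 to 0.992) with at least 2 UMIs of Cr2 and 0.823 (0.695 to 0.974) with at most 1 UMI of Fcer2a. In *Aire*-/- it was 0.805 (0.668 to 0.970) with any Mzb1. Follicular-like cells, B cells with at least 1 UMI of Fcer2a and 0 of the cycle genes, numbered 911, 977, 924 and 1233. There were 4.49, 5.49, 5.08 and 6.07 follicular-like cells per member. Fewest follicular-like cells per member were found in *Aire*+/+ isotype and most in *Aire*-/- anti-PD1. The remaining non-cycling B cells numbered 212, 215, 195 and 199, and cycling B cells, with at least 1 UMI of a cycle gene, 62, 58, 37 and 56.

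**Figure D1:**
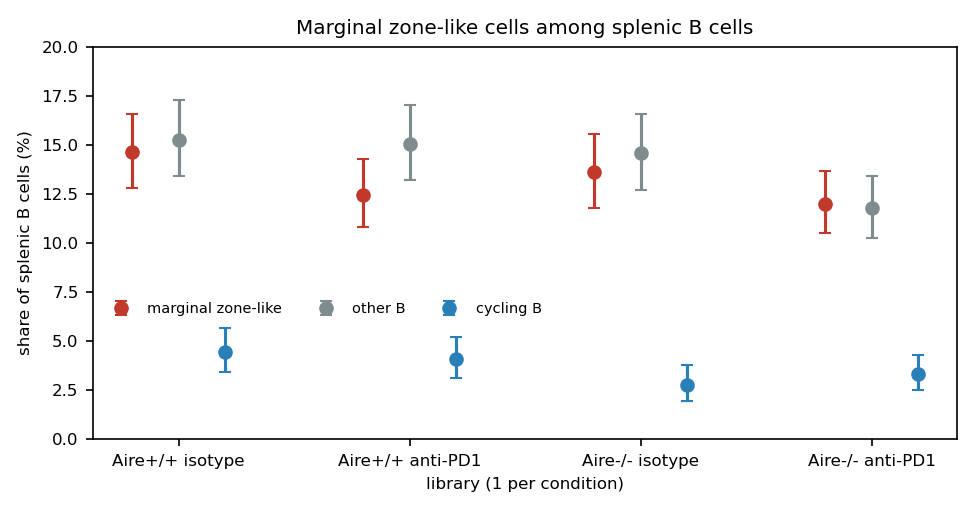
Share of splenic B cells (percent, vertical axis) that were marginal zone-like, other non-cycling or cycling in each of the 4 libraries, with exact 95% intervals that cover counting error only. Marginal zone-like cells were between 12.0 and 14.6% of B cells, with overlapping intervals.

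The rule depends on few molecules in part of the members. Cr2 had a median of 5, 4, 4.5 and 4 UMIs per member, and Mzb1, whose product helps to fold and assemble antibody in the endoplasmic reticulum, a median of 5, 5, 5 and 5. Cd79a, which encodes a signalling chain of the B cell receptor, had a median of 20, 19, 20 and 22. A total of 229 members had 1 UMI of Cr2 or of Mzb1, and 537 had at least 2 of both. Members at the limit had fewer marginal zone gene UMIs. The summed level of a list of marginal zone genes that the rule did not use was 1659, 1688, 1355 and 1299.5 counts per 1000000 UMIs of the same cells (CPM) in the 229, against 2980.4, 3153, 2996 and 3021 CPM in the 537. Outside the limit, 397 cells that met every other condition had 1 UMI of Fcer2a, and their sum was 1631, 1747, 1159 and 1393 CPM. Another 1221 such cells had 2 or more UMIs of Fcer2a, with a sum of 970.3, 1069, 926 and 892 CPM. Cells with 0 UMIs of Cr2 and every other condition met numbered 477, and those with 0 of Mzb1 numbered 146. Cells just inside the limits thus had sums close to those of cells with 1 UMI of Fcer2a just outside them.

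Few barcodes of the other libraries met the rule, and few of them were B cells. Among 9083 barcodes of tumor CD45+ libraries 16 were B cells, of which 3 met it, and among 10856 of splenic CD8+ libraries 41 were B cells, of which 8 met it. Among 8984 of tumor CD8+ libraries 1 was a B cell and 0 met it, which allows up to 3.

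Levels in members and follicular-like cells were compared within each library, from the sum of each gene's UMIs in a class, divided by all UMIs of that class. Cr2 was at 855, 724, 769 and 772 CPM in members and at 339, 289, 269 and 291 CPM in follicular-like cells. Mzb1 was at 905, 847, 884 and 891 CPM, against 408, 373, 391.9 and 402. Both follow from the rule. Cd79a, which both classes had to carry, was lower in members, at 2945, 3093, 3128 and 3265 CPM against 3882, 4014, 4114 and 4259.7 CPM.

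Among 8818 other genes with at least 100 UMIs over both classes and the 4 libraries, 87 were at least 2-fold higher in members in every library (0.987%) and 87 at least 2-fold lower in every library (0.987%). The rule separated the classes on Cr2, Mzb1 and Fcer2a, so these counts describe the classes it made. The median gene had a mean log2 ratio over the 4 libraries of −0.18. Of all 8818 genes 969 were higher (11.0%) and 3183 lower (36.1%) in members in every library, which is the base for the lists below. Other ways of scaling moved that median and the split. With CPM taken without immunoglobulin, J chain, mitochondrial and ribosomal protein genes (the reduced total) the median was −0.05 and 111 genes were at least 2-fold higher and 63 lower, and 17.3% of genes were higher and 22.1% lower in every library at any size. With TMM scaling, which sets libraries on a common scale from their middle genes, the median was −0.07 and 105 were higher and 69 lower, and at any size 16.7 and 24.1% were. With the mean over cells of each cell's CPM (the cell mean) it was −0.16, with 96 higher and 49 lower, and at any size 11.1 and 31.7%. Ratios near −0.18 are therefore those of the typical gene in the main scaling.

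Members were above follicular-like cells in a list of genes that mark marginal zone B cells, beyond those of the rule. Of 18 such genes 16 were measured, 16 were higher in members in every library, and 13 were at least 2-fold higher in every library. Their median log2 ratio was 2.16, against −0.18 for all genes. With the reduced total, from which Ighm is left out, 15 of 15 were higher, and under TMM and the cell mean 16 of 16 were. The list was chosen with earlier results of these data known. A gene such as Ackr3 reached the UMI minimum mainly through members, so these counts are given as a description.

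Cd1d1, whose product presents lipids to natural killer T cells, was at 138, 148, 217 and 193 CPM in members and at 40.1, 41.0, 44.1 and 47.0 CPM in follicular-like cells. Cd9, a tetraspanin of marginal zone and B-1 cells, was at 122, 125, 145 and 123 CPM against 14.8, 18.5, 16.2 and 19.7 CPM. Fcrl5, an Fc receptor-like protein, was at 219.7, 221, 155 and 168 CPM against 44.3, 52.8, 25.2 and 28.9 CPM. The lowest member value of each of these genes was above the highest follicular-like value. S1pr3, a sphingosine-1-phosphate receptor, was at 84.6, 56.2, 59.7 and 88.5 CPM against 9.84, 8.34, 5.32 and 7.59 CPM. Dtx1, a Notch-induced ubiquitin ligase, was at 449, 408, 383 and 376 CPM against 127, 104, 124 and 123 CPM. Plac8 had the highest level of the 13 genes that passed 2-fold, at 932, 1161, 944 and 949 CPM against 413, 407, 369 and 352 CPM.

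Myof, which encodes the membrane-repair protein myoferlin, was at 90.3, 70.1, 95.8 and 78.1 CPM against 8.86, 11.1, 8.09 and 8.49 CPM. Marcks, a substrate of protein kinase C, was at 155, 124, 156 and 138 CPM against 29.8, 31.1, 28.7 and 24.7 CPM. Cd36, a scavenger receptor, was at 88.9, 81.3, 63.8 and 88.5 CPM against 32.0, 23.4, 20.6 and 24.7 CPM. These genes were likewise higher in members with no overlap between the classes. The smallest ratio on the list was that of Ighm, the IgM heavy chain, at 1411, 1194, 1681 and 1107 CPM against 1250.5, 1100.1, 1078 and 1063 CPM, a mean log2 ratio of 0.25. The *Aire*-/- isotype value of Ighm includes 634 UMIs of a single member. By cell, the median member had 1322, 1093, 1099 and 1058 CPM of Ighm, and the median follicular-like cell 1176, 1014, 1012 and 971.

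**Figure D2:**
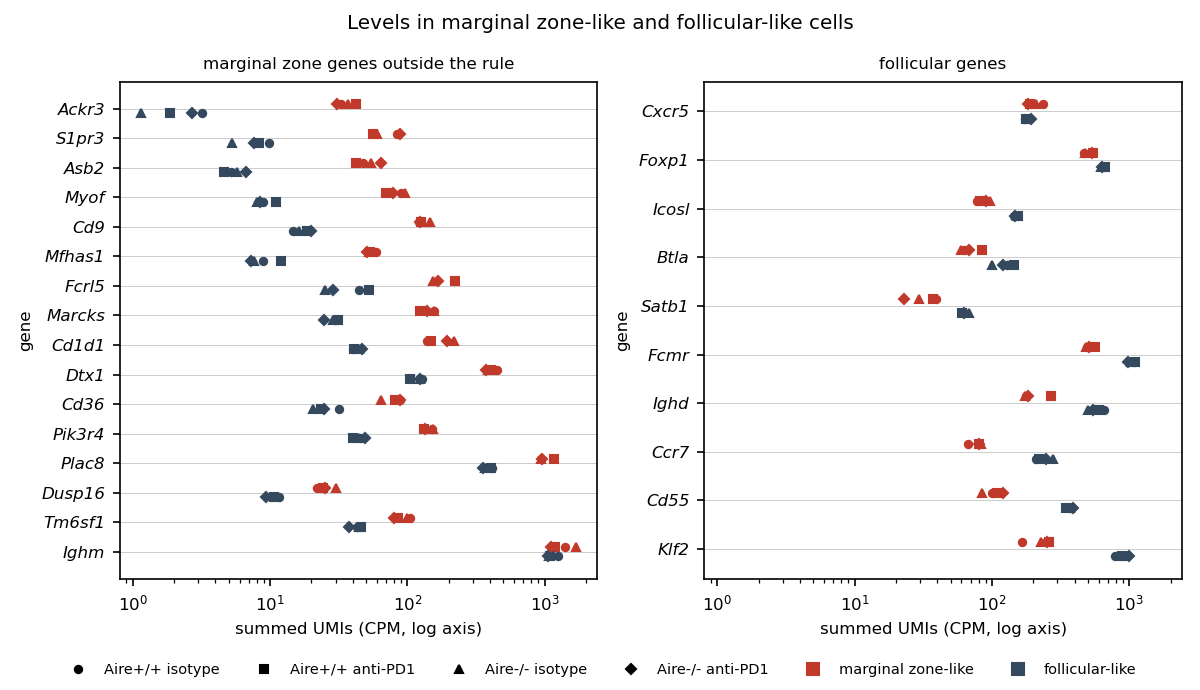
Levels (CPM, log axis) of 16 marginal zone genes and 10 follicular genes in marginal zone-like and follicular-like cells, with a point for each of the 4 libraries. Every marginal zone gene was higher in members in each library, Ighm by the least, and every follicular gene shown but Cxcr5 was lower in each library.

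Many members were positive for these genes cell by cell. A T cell was a barcode with at least 1 Cd3 UMI and 0 of Cd79a, and its share with a UMI of a B cell gene shows the level that free RNA can give. To compare classes at equal depth, cells were also thinned to 2000 UMIs. This left out 3, 5, 3 and 3 members, 4, 30, 16 and 9 follicular-like cells and 5, 27, 8 and 7 T cells. The median depths given above apply to the shares before thinning.

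Fcrl5 had a UMI in 57.6, 59.0, 48.9 and 49.3% of members before thinning and in 27.0, 28.9, 21.2 and 24.0% after it. In follicular-like cells the thinned shares were 5.29, 5.91, 3.30 and 3.02%, from 10.8, 11.3, 7.47 and 7.14% before thinning. In T cells at most 0.402% had a UMI before thinning. Fcrl5 was thus well above the free RNA level in members. S1pr3 had a UMI in 37.4, 23.6, 23.1 and 35.0% of members before thinning and in 10.5, 10.4, 10.6 and 12.0% after it. Follicular-like cells had 1.21, 0.739, 1.10 and 0.899% after thinning, from 2.96, 2.46, 2.27 and 2.11% before it, and T cells 0 in each library after thinning and at most 0.245% before it.

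Cd1d1 had a UMI in 49.8, 47.2, 56.0 and 49.8% of members before thinning and in 20.5, 24.9, 25.7 and 26.5% after it. The thinned shares of follicular-like cells, 7.83, 6.76, 7.38 and 8.01%, were close to those of T cells, 7.12, 6.82, 6.98 and 6.92%. Before thinning the shares were between 14.7 and 17.1% in follicular-like cells and between 13.7 and 17.7% in T cells. For Cd1d1 the follicular-like share was therefore at the T cell level, and the member share was above both.

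Cd9 had a UMI in 44.8, 40.4, 44.5 and 42.4% of members before thinning and in 19.0, 16.8, 22.9 and 17.0% after it. T cells had 12.1, 11.3, 11.0 and 11.8% after thinning, from between 22.5 and 28.7% before it, and follicular-like cells 1.32, 2.96, 1.76 and 2.70%, from between 4.94 and 6.57%. T cells thus exceeded follicular-like cells in Cd9 and in Dtx1, and gave no background for either gene. Dtx1 had a UMI in 76.8, 75.3, 74.2 and 70.9% of members before thinning and in 50, 47.4, 45.8 and 45.0% after it. After thinning it was in 24.1, 22.6, 19.4 and 22.2% of T cells, from between 37.2 and 39.8%, and in 15.4, 13.7, 18.4 and 16.7% of follicular-like cells, from between 24.4 and 31.2%. For Ighm, which T cells do not make, between 66.9 and 69.1% of T cells had a UMI before thinning and between 36.5 and 44.6% after it. The member shares of Ighm, between 97.5 and 99.5% before and between 84.5 and 93.5% after thinning, stand on that background.

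**Figure D3:**
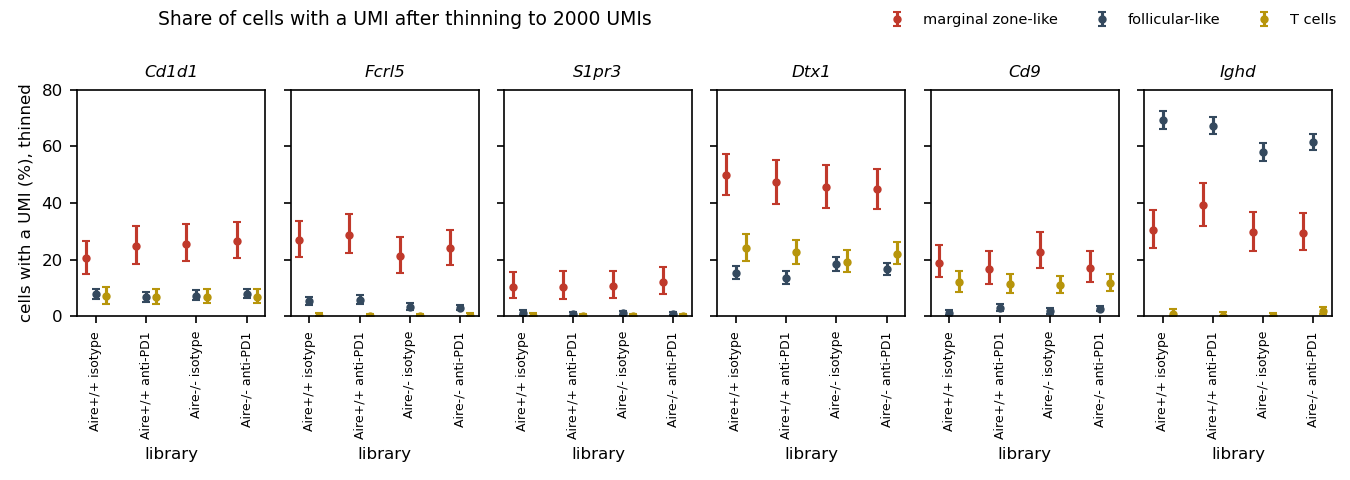
Percent of cells with a UMI (vertical axis) of Cd1d1, Fcrl5, S1pr3, Dtx1, Cd9 and Ighd after thinning to 2000 UMIs, in members, follicular-like cells and T cells of the 4 libraries, with exact 95% intervals that cover counting error only. Members had the highest share for every gene but Ighd, which was highest in follicular-like cells.

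Several marginal zone genes usually occurred in the same member. At 2000 UMIs, 120 of 200, 104 of 173, 110 of 179 and 123 of 200 members (60.0, 60.1, 61.5 and 61.5%) had a UMI of at least 3 of 17 list genes, Ighm left out. Follicular-like cells reached 3 of the genes in 7.72, 8.34, 8.59 and 7.43%, and T cells in 1.86, 1.84, 1.80 and 3.26%. No UMI of any of the 17 genes was found in 9, 9.25, 8.94 and 10.5% of the members. The members were therefore mixed in depth of signal, with a minority that carried none of these genes at this depth.

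The genes furthest above follicular-like cells were of low level apart from Jchain, and 15 are named by a fixed rule of size. They were chosen for their high ratios, and a gene such as Abcb1a, with 100 UMIs in all, reached the UMI minimum mainly through members, so the ratios are given as a description. Abcb1a, a drug efflux pump, had the largest mean log2 ratio, 4.78, at 19.2, 17.3, 14.7 and 15.6 CPM in members against 0.246, 0.464, 0.924 and 1.26 CPM. It had 1, 2, 4 and 7 UMIs in follicular-like cells, and the *Aire*+/+ isotype log2 ratio of 6.29 has an interval of 3.68 to 11.64. Serpine2, a serine protease inhibitor, was at 26.3, 32.9, 44.2 and 52.8 CPM against 1.97, 2.09, 1.39 and 3.07 CPM. Its member level was higher in both *Aire*-/- libraries than in both *Aire*+/+ libraries. Pla2g7, which inactivates platelet-activating factor, was at 29.1, 30.3, 35.2 and 35.7 CPM against 2.46, 2.78, 1.16 and 1.99 CPM.

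A pair of the 15 genes encode atypical chemokine receptors, which take up chemokines without G protein signals. Ackr3, a receptor of Cxcl12, was at 32.7, 42.4, 36.8 and 30.5 CPM against 3.2, 1.85, 1.16 and 2.71 CPM. Ackr2, which clears inflammatory CC chemokines, was at 17.1, 13.8, 18.8 and 29.7 CPM against 1.97, 0.464, 2.31 and 3.97 CPM. Tspan15, a tetraspanin partner of the protease Adam10, was at 15.6, 19.0, 22.9 and 34.9 CPM against 2.21, 2.32, 0.924 and 1.63 CPM.

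Plxnd1, a semaphorin receptor, stood apart across conditions. In members it was at 32.0, 22.5, 4.09 and 5.20 CPM, from 45, 26, 5 and 7 UMIs, and in follicular-like cells at 2.71, 2.09, 0.462 and 0.542 CPM. It was lower in the *Aire*-/- libraries in both classes, while the ratio between classes stayed between 3.15 and 3.56 on the log2 scale. Rap1gap, which switches off the GTPase Rap1, was at 24.9, 27.7, 12.3 and 12.6 CPM in members and between 0.738 and 2.35 CPM in follicular-like cells. Unlike in members, its follicular-like level was higher in *Aire*-/- under each antibody, but from only 3, 7, 5 and 13 UMIs.

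The rest of the 15 had mean log2 ratios from 3.42 to 4.0. They were Ms4a7, the adhesion molecule Ceacam2, I830077J02Rik, the lipase Lipc, the lysine methyltransferase Smyd2, Tbc1d9 and Jchain. I830077J02Rik was the most abundant of them apart from Jchain, at 89.6, 56.2, 77.8 and 72.1 CPM against 5.17, 4.64, 4.62 and 6.68 CPM. Against follicular-like cells that also had Cr2 and Mzb1, its mean log2 ratio was 2.76 instead of 3.81. Jchain, the chain that joins IgM and IgA into polymers, rested on single cells. Of its 16, 2, 2811 and 3833 member UMIs, 2807 and 3830 of the last pair were in 1 cell each. With members of at least 2 UMIs of Cr2 and of Mzb1 its mean log2 ratio was −1.44 instead of 3.45, and with the cell mean it lost its common sign.

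Genes furthest below follicular-like cells had few UMIs in members. Ms4a4a had the smallest mean log2 ratio, −2.95, with 2, 3, 2 and 6 member UMIs and 71, 99, 63 and 92 follicular-like UMIs. Crisp3 was at 3.55, 3.46, 6.55 and 1.49 CPM in members and at 22.1, 21.8, 17.8 and 16.3 CPM in follicular-like cells. Pde2a, a phosphodiesterase of cyclic nucleotides, was at 3.55, 13, 5.73 and 6.69 CPM against 26.6, 31.5, 32.6 and 31.4 CPM. Sgk1, a kinase under control of steroid hormones, was at 1.42, 3.46, 2.46 and 1.49 CPM against 9.60, 11.4, 12.0 and 11.4 CPM. The carbonic anhydrase Car2, Wfdc17, the glutamate decarboxylase Gad1, Pcp4, L1cam, Arhgap31, Prss12, Ly6c2 and Fry had mean log2 ratios from −2.75 to −2.24, from at most 12 member UMIs in a library. Of these, Wfdc17 had 0 member UMIs in *Aire*+/+ isotype, L1cam in *Aire*+/+ anti-PD1 and Ly6c2 in *Aire*-/- isotype. Their means include a floor there and are not measured ratios. These genes were chosen for their low ratios and reached the UMI minimum mainly through follicular-like cells, so the ratios are given as a description.

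Ccl5 and Gzma, a chemokine and a granzyme of cytotoxic lymphocytes, are also among the 15 lowest. In members Ccl5 had 0, 0, 6 and 0 UMIs and Gzma 0, 0, 1 and 0, where a count of 0 allows up to 3 counts. In follicular-like cells they had 64, 58, 54 and 179 UMIs and 21, 38, 34 and 206 UMIs. With doublet calls removed, which took out 0, 1, 1 and 1 follicular-like cells, these were 64, 6, 8 and 71 UMIs and 21, 0, 2 and 78 UMIs. No ratio is read from these counts, as those of members were at most 6.

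Genes of follicular and recirculating B cells were lower in members. Of 11 follicular genes, all measured, 10 were lower in every library, 5 of them at least 2-fold, and the median log2 ratio was −1.03. The exception was Cxcr5, the receptor that draws B cells to follicles, which was on both sides in the main scaling and higher in members in every library under the other scalings. Klf2, a transcription factor of quiescent recirculating lymphocytes, was at 164, 259.5, 226 and 249.8 CPM in members and at 788, 881, 910.5 and 998 CPM in follicular-like cells. Ighd, the IgD heavy chain, was at 176, 267, 174 and 183 CPM against 650.3, 607, 500.3 and 545 CPM. The *Aire*+/+ anti-PD1 library had the highest member level of both genes. By cell, the median member had 119.8, 178, 125 and 121 CPM of Ighd, and the median follicular-like cell 595, 537, 465 and 486.

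Ighd was in 58.1, 67.4, 57.7 and 57.1% of members before thinning and in 30.5, 39.3, 29.6 and 29.5% after it. Follicular-like cells had 69.3, 67.3, 58.0 and 61.5% after thinning, from 88.7, 86.7, 83.0 and 85.0%, and T cells at most 1.83% after and 3.66% before it. IgD RNA was thus less frequent in members but far above the free RNA level. Cd55, which protects cells from complement, was at 100.2, 108, 85.1 and 120.4 CPM in members against 369, 344, 368 and 389 CPM. Fcmr, the Fc receptor for IgM, was at 493, 561, 485 and 512 CPM against 1087, 1103, 1030.2 and 979 CPM.

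Of 21 measured genes of migration and retention, 4 were higher and 13 lower in members in every library, against 11.0 and 36.1% of all genes, with a median log2 ratio of −0.36 against −0.18. Under the reduced total and TMM 5 were higher and 11 lower, since Cxcr5 turned higher and Itga4 and Gnai2 lost their common sign. Ccr7, the receptor for chemokines of the T cell zone, was at 66.8, 80.5, 82.7 and 80.3 CPM against 211, 219, 278 and 247 CPM. Itgb7, an integrin chain for homing to the gut, was at 37.0, 40.7, 47.5 and 55.8 CPM against 125, 129.6, 151 and 162 CPM.

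S1pr1, the sphingosine-1-phosphate receptor that overrides the pull into follicles, was at 323, 307, 354 and 401 CPM against 178, 194, 199.9 and 234 CPM. Itgb1, an integrin chain, was at 40.5, 41.5, 31.9 and 44.6 CPM against 18.0, 23.2, 24.3 and 22.6 CPM. Itgal, which pairs with Itgb2 to hold cells on ICAM1, had a mean log2 ratio of 0.28. S1pr4, another receptor for sphingosine-1-phosphate, was lower, at 31.3, 38.9, 39.3 and 38.7 CPM against 91.0, 99.0, 110.2 and 100.1 CPM. S1pr1, S1pr3, Itgb1 and Itgal were the 4 genes above follicular-like cells, and they kept that side in all scalings.

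Of the Notch2 pathway, 22 of 25 genes were measured. In members 6 were higher and 6 lower in every library, against 11.0 and 36.1% of all genes, which became 9 and 3 with the reduced total and with TMM. The median log2 ratio was −0.11, and it was on the other side of 0 at 0.03 with the reduced total. Notch2, the receptor, was at 90.3, 98.6, 76.9 and 85.5 CPM in members against 78.0, 74.9, 66.8 and 80.4 CPM. Hes1, a direct Notch target, was at 107, 129.8, 111 and 103 CPM against 63.2, 45.4, 69.3 and 51.7 CPM. Hes5, from the same family, was at 50.5, 18.2, 29.5 and 23.0 CPM against 8.37, 6.26, 7.16 and 7.05 CPM. Hes1 and Hes5 were thus higher in members in every library, with Hes5 highest in *Aire*+/+ isotype.

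Asb2, a ubiquitin ligase subunit induced by Notch, was at 47.6, 42.4, 54.0 and 63.9 CPM in members against 5.17, 4.64, 5.78 and 6.68 CPM. Dtx3 was at 29.1, 27.7, 18.8 and 20.8 CPM against 14.5, 12.7, 9.01 and 12.6 CPM. Lfng and Mfng, which modify Notch receptors with sugars, were lower, with mean log2 ratios of −0.97 and −0.59. Rfng of the same family, and the secretase subunits Ncstn and Psenen, were lower in the main scaling and lost their common sign with the reduced total and TMM.

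Of 16 measured Toll-like receptor genes and adaptors, which sense microbial products, 6 were higher and 1 lower in members in every library, against 11.0 and 36.1% of all genes, with a median log2 ratio of 0.21 against −0.18. The counts were 11 and 0 with the reduced total, 10 and 0 with TMM and 5 and 1 with the cell mean. The lower gene, Tlr1, lost its common sign with the reduced total and TMM, and Ticam1, an adaptor of Tlr3 and Tlr4, with the cell mean. Ly96, the partner that lets Tlr4 bind lipopolysaccharide, was at 26.3, 24.2, 40.1 and 28.2 CPM against 7.63, 7.19, 7.16 and 5.60 CPM. Tlr7, a receptor for single-stranded RNA, was at 39.8, 34.6, 30.3 and 36.4 CPM against 21.2, 20.6, 16.4 and 19.5 CPM. Cd180, a Toll-like receptor relative that restrains or aids lipopolysaccharide responses of B cells, was at 221, 193, 215 and 276 CPM against 154, 169.7, 145 and 159 CPM. Its partner Ly86 was at 578, 573, 583 and 624 CPM against 455, 473, 472 and 499 CPM.

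Of 10 complement receptors and regulators outside the rule 3 were measured, with a median log2 ratio of −0.46. Cfp, which encodes the complement activator properdin, was higher in members, at 91.0, 62.3, 53.2 and 38.7 CPM against 27.3, 21.3, 27.7 and 22.2 CPM. Cr1l, a complement regulator, was lower, at 54.7, 46.7, 46.7 and 61.7 CPM against 66.9, 64.4, 73.3 and 83.3 CPM. Together with Cd55, 1 gene was thus higher and 2 were lower in every library and scaling. C3, C3ar1 and C5ar1 had 0 member UMIs in each library.

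Of 30 genes of the endoplasmic reticulum and secretion, all measured, 7 were higher and 6 lower in every library, against 11.0 and 36.1% of all genes, with a median log2 ratio of 0.02 against −0.18. The counts were 11 and 2 with the reduced total, 9 and 2 with TMM and 4 and 6 with the cell mean, where the median was −0.01. Pdia4, a protein disulfide isomerase, was the only gene of the list at least 2-fold apart in every library, at 516, 485, 478 and 493 CPM in members against 212, 201, 201 and 201 CPM. Dnajc3, a cochaperone of the stress response of this organelle, was at 92.4, 96.9, 111 and 99.6 CPM against 63.5, 71.2, 78.8 and 78.0 CPM. Hspa5, the main Hsp70 of the organelle, was at 343, 295, 409 and 537 CPM against 256, 257, 380.4 and 425 CPM. Txndc5 and Herpud1 went lower, with mean log2 ratios of −0.80 and −0.52.

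Of 9 measured immunoglobulin constant regions and Jchain, 2 were higher and 3 lower in every library, with a median log2 ratio of −0.03. Under TMM 2 were higher and 2 lower with a median of 0.08, and with the cell mean 1 and 3. Apart from Ighm, Ighd and Jchain, the lower genes were the light chains Iglc2 and Iglc3, and Iglc2 lost its common sign under TMM. Igkc, the kappa chain, was at 1575, 1266, 1925 and 3284 CPM in members against 1900.1, 1623, 1943 and 2286 CPM. Of the 4418 UMIs behind the last member value 2054 came from 1 cell, and 2364 were left without it. In *Aire*-/- isotype 784 came from 1 cell, and 1568 were left without it. Without these cells the member level of Igkc was below the follicular-like level in every library.

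Of 31 measured genes of B cell receptor signalling, 9 were higher and 17 lower in every library, against 11.0 and 36.1% of all genes, or 11 and 13 with the reduced total. Their median log2 ratio was −0.17, against −0.18 for all genes. Cd81, a tetraspanin that associates with complement receptor 2, was at 443, 458, 544 and 543 CPM in members against 319, 296, 338 and 346 CPM. Blk, a kinase of the Src family, was at 441, 419.6, 433 and 477 CPM against 321, 326, 293 and 309.8 CPM. Blnk, an adaptor, and Cd38 were higher with mean log2 ratios of 0.32 each. Rasgrp3, an activator of Ras, was lower, at 51.2, 45.0, 58.1 and 58.0 CPM against 115, 102, 104 and 107 CPM. Prkcb, the kinase that links the receptor to NF-κB, was at 198, 229, 204 and 203 CPM against 313, 328, 336 and 319 CPM.

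Of 21 measured genes of BAFF, TNF receptors and NF-κB, 1 was higher and 11 lower in every library, against 11.0 and 36.1% of all genes, or 2 and 9 with the reduced total. Their median log2 ratio was −0.39, against −0.18 for all genes. Tnfrsf13c, the BAFF receptor, was at 248, 295, 313 and 330.1 CPM in members against 402, 446, 511 and 502 CPM. The single higher gene in the main scaling was Traf1, an adaptor of TNF receptors, at 41.9, 42.4, 57.3 and 54.3 CPM against 24.4, 24.3, 27.5 and 35.8 CPM. Members were also lower in immediate early genes. Of 19 measured, 2 were higher and 14 lower in every library and in every scaling, and the median log2 ratio was −0.83. Jund was at 72.5, 84.8, 83.5 and 80.3 CPM against 204, 216, 209 and 202 CPM. Cd69, an activation marker that blocks S1pr1, was at 33.4, 44.1, 26.2 and 41.6 CPM against 69.9, 87.4, 91.3 and 99.2 CPM. The exceptions were Myc and the costimulatory ligand Cd86. Myc was at 98.1, 108, 79.4 and 96.6 CPM against 52.2, 59.1, 53.1 and 53.3 CPM, and Cd86 had a mean log2 ratio of 0.81.

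Of 11 genes of MHC class II presentation, all measured, 9 were lower and 0 higher in every library, and 8 were lower in each other scaling, where H2-DMb2 lost its common sign. The median log2 ratio was −0.34, against −0.18 for all genes, of which 36.1% were lower and 11.0% higher in every library. H2-Ob, a subunit of the inhibitor of peptide loading, was at 284, 325, 308 and 330.1 CPM against 579.7, 597, 593 and 613 CPM. H2-Aa, a chain of the presenting molecule itself, was at 4817, 5068, 5082 and 4839.7 CPM against 6309, 6776, 6348 and 6543 CPM. H2-Aa thus stayed abundant in members at a lower level, and H2-Ob was further below follicular-like cells.

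Of 15 B cell identity genes, all measured, 2 were higher and 9 lower in every library, against 11.0 and 36.1% of all genes, with a median log2 ratio of −0.16 against −0.18. With the reduced total and TMM the counts were 5 and 5. Ms4a1, which encodes CD20, was at 1516, 1324, 1551 and 1616 CPM in members against 1115, 1215, 1272 and 1312 CPM. As a list, B cell identity genes were thus close to the median of all genes.

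Of 32 measured interferon response genes, 8 were higher and 8 lower in every library, against 11.0 and 36.1% of all genes, or 11 and 5 with the reduced total. The median log2 ratio was 0.07, against −0.18 for all genes. Single genes stood out. Isg15, a ubiquitin-like interferon product, was at 91.0, 64.0, 76.9 and 52.0 CPM in members against 16.5, 26.0, 22.6 and 14.8 CPM. Ly6a, which encodes Sca-1, was at 1139, 1011, 1188 and 1172 CPM against 578, 577, 619 and 643 CPM. Of 8 measured heat shock genes 1 was higher and 3 lower in every library, with a median of −0.07, or 3 and 2 with the reduced total and TMM, where the median was 0.07 and 0.04.

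Genes of other B cell states are given by list. Of 3 measured genes of transitional B cells 1 was higher and 2 lower in every library (median log2 ratio −1.21), where Cd24a, the higher gene, lost its common sign with the cell mean. The list summed to 609, 572, 545 and 584 CPM in members, most of it Cd24a, with Rag1 and Rag2 at 0. Of 9 measured B-1 and memory-like genes 2 were higher and 4 lower (median −0.75). Vim was the most abundant, and the list summed to 371, 295, 299 and 333 CPM, with Ctla4 at 0 in every library. Germinal centre genes summed to 36.3, 17.3, 16.4 and 14.1 CPM over 8 genes, led by Fas in the *Aire*+/+ libraries and by Bcl6 in the *Aire*-/- libraries, and of 2 measured 1 was lower (median −0.92). Mybl1 was at 0 in 3 libraries. Of 7 measured cell cycle genes outside the rule 7 were lower (median −0.64), or 6 with the reduced total and TMM, and Tubb5 led their sums of 616, 612, 728 and 699 CPM.

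Of 8 measured plasma cell genes, 5 were higher and 1 lower in every library (median 0.71), or 3 and 2 with the cell mean (median 0.52). These counts include Jchain and Slpi, which both rested on single cells. Slpi had 11, 0, 78 and 31 member UMIs, each in 1 member, against 5, 8, 168 and 8 in follicular-like cells. Its *Aire*+/+ anti-PD1 value in members is a floor and not a measured level. With the reduced total, which leaves out Jchain but keeps Slpi, 4 of 7 were higher and 1 lower (median 0.56). Their sums were 197, 122, 2592 and 3145 CPM in members, led by Xbp1 in the *Aire*+/+ libraries and by Jchain in the *Aire*-/- libraries. The last 2 sums rest on 1 cell each, and without members of at least 100 Jchain UMIs the sums were 197, 122, 191 and 223 CPM, led by Xbp1 in each library. Tnfrsf17 was at 0 in both *Aire*+/+ libraries. Irf4, a regulator of plasma cell fate, was at 41.9, 35.5, 30.3 and 52.0 CPM against 27.6, 29.9, 29.6 and 30 CPM. The part of the plasma cell genes in other results was not tested beyond leaving out the cells described below.

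Markers of other lineages are given as list sums. Of the T cell list outside the rule, 10 genes summed to 153, 178, 145 and 141 CPM, nearly all from Cd2, a gene shared with B cells, and Cd28 and Themis were at 0 in every library. Natural killer genes summed to 5.69, 4.33, 7.37 and 1.49 CPM over 9 genes, led by Prf1, with Ncr1, Klrb1c and Eomes at 0. Macrophage and monocyte genes summed to 59.7, 6.92, 10.6 and 20.1 CPM over 15 genes, led by Cd68 in the first 3 libraries and by Spic in the last. Marco, Siglec1 and Ccr2 were at 0 in every library, and the *Aire*+/+ isotype library had 10 of the 15 genes. Neutrophil genes summed to 2.13, 0, 2.46 and 2.97 CPM over 9 genes, led by S100a9 or S100a8, and Ngp, Lcn2 and Retnlg were at 0. Dendritic cell genes summed to 159, 176, 204 and 196 CPM over 11 genes, nearly all from Cst3, with Clec9a and Xcr1 at 0. Erythroid and platelet genes summed to 17.1, 12.1, 14.7 and 14.1 CPM over 11 genes, led by Hbb-bs or Car2, with Pf4 and Ppbp at 0. Of these lists 3 T cell, 1 natural killer, 1 macrophage, 1 dendritic and 2 erythroid genes reached the UMI minimum, each lower in members than in follicular-like cells in every library, except that Hbb-bt lost its common sign with the cell mean. Their medians were −0.69, −2.59, −2.26, −0.51 and −1.61, where the natural killer value is that of Gzma, which had 0 member UMIs in 3 libraries and is not a measured ratio there. The macrophage value is that of Ly6c2, which had 0 member UMIs in *Aire*-/- isotype and is likewise not a measured ratio there. A gene scarce in members reaches the minimum mainly through follicular-like cells, so its direction is not read as a difference. No neutrophil gene was measured. The part of these genes in the results was not tested. Xist, the measured sex-linked gene, was at 633, 591, 566 and 534 CPM against 391.98, 384, 393 and 351 CPM, a log2 ratio of 0.61.

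The members of *Aire*-/- and *Aire*+/+ mice were compared within each antibody. These comparisons ask what the loss of Aire goes with in these cells. A gene was measured when both libraries together held 50 UMIs or more of it in members, and a gene was counted when its CPM differed at least 2-fold. Under isotype 55 of 5190 genes were counted (1.06%), 24 higher and 31 lower in *Aire*-/-. Under anti-PD1 52 of 5106 were counted (1.02%), 38 higher and 14 lower. That split moved with the scaling, to 29 higher and 18 lower with the reduced total and to 30 and 23 with TMM. The median log2 ratio of all genes was 0.01 under isotype, or −0.02 with the reduced total, and 0.07 under anti-PD1.

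The comparisons share no library, and 5 genes were at least 2-fold higher and 2 at least 2-fold lower in *Aire*-/- in both, of 4861 measured in both. The higher genes were BC002163, Dynlt1b, Dnaja1, Hsph1 and Jchain, and the lower genes Rnaset2b and Snord35a. Jchain rested on the single cells described below. With TMM, and also with the cell mean, Dnaja1 did not pass in both comparisons. Thinned to 2000 UMIs, fewer genes were measured and only Jchain passed in both.

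BC002163, a processed pseudogene on the plus strand of chromosome 16 (16:42955631-42955949 in GRCm38, GENCODE annotation), was at 13.5, 8.65, 62.2 and 63.2 CPM in members. Its log2 ratio of *Aire*-/- to *Aire*+/+ was 2.20 (1.46 to 3.01) under isotype, against 2.87 (1.92 to 3.98) for the pair given anti-PD1. Reads of the parent gene of a pseudogene can be counted at it, so its values are uncertain. The same difference was present in follicular-like cells, with log2 ratios of 2.24 and 2.36, and in T cells, with 1.95 and 2.59. It was thus not particular to the members.

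Dynlt1b, a dynein light chain gene (17:6430112-6436296), was at 32.0, 40.7, 93.3 and 110.0 CPM. Its log2 ratio was 1.54 (1.03 to 2.08) under isotype, against 1.44 (0.95 to 1.94) for the pair given anti-PD1. In follicular-like cells the values were 1.65 and 1.33, and in T cells 1.23 and 1.31. Dynlt1b has near-identical copies, of which Dynlt1a had 12, 5, 15 and 11 member UMIs, so the counts can be split between them. Rnaset2b, a ribonuclease gene on the same chromosome (17:6970634-7011299), went the other way, at 66.1, 70.9, 28.6 and 26.0 CPM. Its log2 ratio was −1.21 (−1.81 to −0.63) under isotype, against −1.45 (−2.06 to −0.86) for the pair given anti-PD1. In follicular-like cells it was −1.26 and −1.17, and in T cells −1.26 and −1.24. It too has a near-identical copy, Rnaset2a, and its values are uncertain for that reason.

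A pair of chaperone genes was higher in *Aire*-/- members. Dnaja1, an Hsp70 cochaperone (4:40722150-40737149), was at 107, 116, 266 and 239 CPM. Its log2 ratio was 1.32 (1.04 to 1.61) under isotype, against 1.05 (0.75 to 1.35) for the pair given anti-PD1. Follicular-like cells had 1.34 and 1.03, and T cells 0.94 and 0.62. Hsph1, which encodes Hsp110 (5:149614287-149636376), was at 17.1, 16.4, 61.4 and 43.9 CPM. Its log2 ratio was 1.85 (1.17 to 2.58) under isotype, against 1.42 (0.65 to 2.24) for the pair given anti-PD1, in follicular-like cells 1.05 and 1.85, and in T cells 1.24 and 1.37.

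Snord35a, a small nucleolar RNA (7:45126346-45126435), was at 90.3, 85.6, 40.1 and 29.7 CPM. It lies within another gene, so that reads of that gene and of Snord35a cannot be told apart. Its log2 ratio was −1.17 (−1.68 to −0.68) under isotype, against −1.53 (−2.09 to −0.98) for the pair given anti-PD1. In *Aire*+/+ isotype 25 of its 127 UMIs were in 1 member, and without that cell the isotype ratio was −0.86, under 2-fold. Without the richest member of each library the ratios were −0.98 and −1.68. In follicular-like cells it was −0.65 and −1.94, and in T cells −0.67 and −2.16. All of these genes lie on other chromosomes than Aire (10:78030022-78043610). They were shifted the same way in follicular-like cells and T cells, so none of these differences belonged to the members alone.

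**Figure D4:**
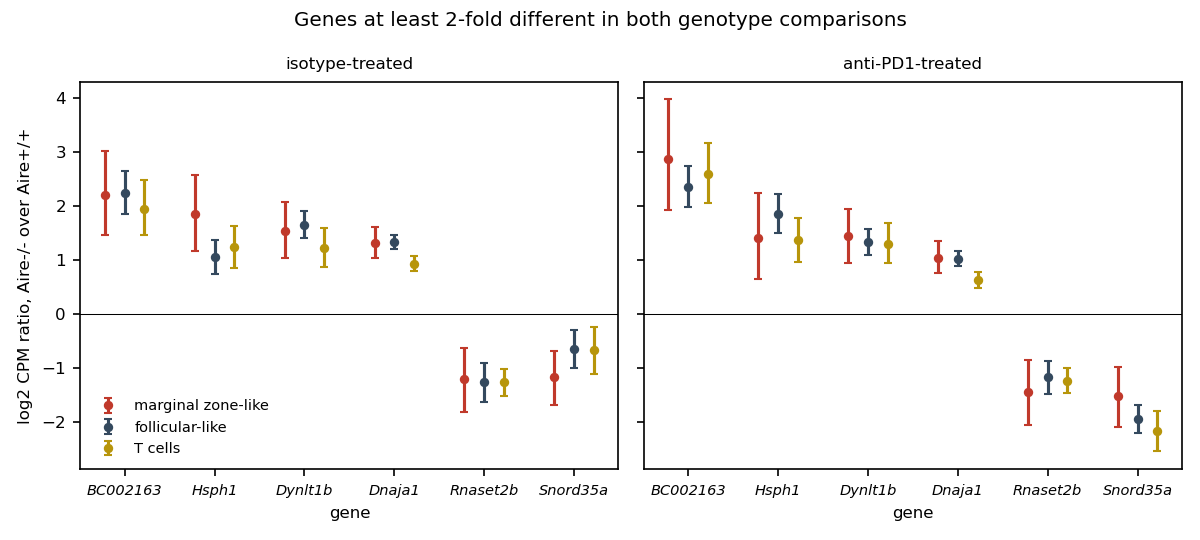
Log2 ratios of *Aire*-/- to *Aire*+/+ (vertical axis) for BC002163, Hsph1, Dynlt1b, Dnaja1, Rnaset2b and Snord35a in members, follicular-like cells and T cells, under isotype and under anti-PD1, with conditional exact 95% intervals that cover counting error only. The first 4 genes were above 0 and the last 2 below 0 in each class and under both antibodies.

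A pair of member cells decided Jchain and Igha. Jchain was at 11.4, 1.73, 2301 and 2849.5 CPM in members. In *Aire*-/- isotype 1 member held 2807 Jchain UMIs together with 634 of Ighm, 78 of Slpi and 51 of Mzb1, and in *Aire*-/- anti-PD1 1 member held 3830 together with 1007 of the 1013 Igha UMIs, 56 of Xbp1, 31 of Slpi and 8 of Sdc1. These cells carried 1 UMI of Cr2 each. Without them the log2 ratios of Jchain between genotypes were −1.78 under isotype and 0.38 under anti-PD1, in place of 7.66 and 10.69. They came from 4 UMIs in *Aire*-/- against 16 in *Aire*+/+ and from 3 against 2, below the minimum of 50, so no direction is read from them. Cells with at least 100 Jchain UMIs numbered 0, 0, 1 and 1 among members, 0, 0, 1 and 0 among follicular-like cells and 6, 3, 3 and 6 among the other non-cycling B cells. Slpi, an inhibitor of proteases, had 11, 0, 78 and 31 UMIs, each in 1 member. Without the pair of cells 4 genes were higher and 2 lower in both genotype comparisons.

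Further genes were named by size in each comparison, and some of them stayed under 2-fold. Under isotype, 1700030K09Rik was at 34.8, 44.1, 73.7 and 61.7 CPM, with a log2 ratio of 1.08, and Tmem33, a membrane protein of the endoplasmic reticulum, at 25.6, 31.1, 54.0 and 43.1 CPM, also with 1.08. Rbbp6, a ubiquitin ligase, was at 56.9, 47.6, 27.8 and 37.2 CPM, with −1.03. Fam129c was at 73.2, 71.8, 37.6 and 67.7 CPM, with −0.96. For each of these genes the isotype libraries of the genotypes were the opposite extremes of the 4. S100a6 had 118, 60, 53 and 95 UMIs, of which 43, 48, 15 and 38 were in 1 cell, and its log2 ratio of −0.95 was 0.14 in members with at least 2 UMIs of Cr2 and of Mzb1. Follicular-like cells had 0.56 for 1700030K09Rik, 0.40 for Tmem33, −0.38 for Rbbp6, −0.59 for Fam129c and 0.29 for S100a6. T cells, given for these and later genes where both libraries together held 50 UMIs or more, had 0.37 for Tmem33, −0.52 for Rbbp6 and −0.07 for S100a6.

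Under anti-PD1, Stip1, which links Hsp70 to Hsp90, was at 54.0, 30.3, 63.0 and 85.5 CPM, with a log2 ratio of 1.5 (0.94 to 2.09). Sdf2l1, a chaperone of the endoplasmic reticulum, was at 49.8, 18.2, 40.9 and 59.5 CPM, with 1.71 (1.0 to 2.48). In both the *Aire*+/+ anti-PD1 library was the lowest. Nfkbid, a nuclear inhibitor of NF-κB, had 63, 26, 87 and 125 UMIs, with a log2 ratio of 2.05 (1.43 to 2.72). In the last library 64 of the 125 were in 1 cell, and 61 were left without it. The ratio was 1.03 without that cell and 1.26 without the richest cell of each library. In follicular-like cells Stip1 had 0.65 and Sdf2l1 0.96, while Nfkbid went the other way with −0.53 (−0.78 to −0.29). T cells had 0.87, 0.19 and −0.37.

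Tsc22d3, induced by glucocorticoids, was at 91.7, 173, 105 and 84.7 CPM, with a log2 ratio of −1.03 (−1.37 to −0.69) under anti-PD1. Sesn1, a stress-induced regulator of growth signals, was at 103, 174, 88.4 and 94.4 CPM, with −0.88 (−1.21 to −0.55). For both genes the *Aire*+/+ anti-PD1 library was the highest. In follicular-like cells the ratios were −1.04 and −0.77, and in T cells −1.01 and −0.02. Adar, which edits double-stranded RNA, was at 42.7, 53.6, 43.4 and 29.0 CPM, with −0.89, and with −0.37 in follicular-like cells and 0.03 in T cells.

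Heat shock genes were higher in *Aire*-/- members as a list. Under isotype 7 of 8 measured were above 0 (3 at least 2-fold, median log2 0.30 against 0.01 for all genes, of which 51.2% were above 0 and 1.06% at least 2-fold apart), or 6 with the reduced total and 8 with the cell mean. Under anti-PD1 8 of 8 were above 0 (2 at least 2-fold, median 0.59 against 0.07, with 59.5% and 1.02% of all genes), or 7 with TMM. Hspa8, the main cytosolic Hsp70, was at 1177, 1070.1, 1651 and 1651 CPM in members and at 1109, 953, 1979 and 1814 CPM in follicular-like cells. Dnajb1 was at 39.1, 45.9, 78.6 and 66.9 CPM against 55.4, 64.0, 109 and 77.0 CPM. Both classes thus had higher levels of these genes in the *Aire*-/- libraries. Those libraries also had the lower median share of mitochondrial UMIs, at 5.71, 5.34, 4.58 and 4.36% in members, 5.28, 5.20, 4.18 and 4.04% in follicular-like cells and 4.01, 4.31, 3.47 and 3.57% in T cells. A difference in RNA quality or handling between the libraries cannot be told apart from genotype here.

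Genes of the endoplasmic reticulum were above 0 in 19 of 28 under isotype, against 51.2% of all genes, with a median of 0.17 against 0.01. Under anti-PD1 24 of 28 were, against 59.5%, and 4 were at least 2-fold apart, against 1.02%, with a median of 0.41 against 0.07, and 22, 21 and 23 of 28 in the other scalings. The 4 were Sdf2l1, Hyou1, Creld2 and Xbp1. Hyou1, an Hsp70 relative, was at 12.8, 17.3, 20.5 and 38.7 CPM, and Creld2 at 26.3, 19.0, 31.9 and 40.9 CPM. Xbp1, the regulator of secretory capacity, was at 88.2, 56.2, 122 and 146 CPM, and without the Jchain-rich cells its log2 ratio was 0.92. Without those cells the endoplasmic reticulum list summed to 4046, 3575, 4143 and 4555 CPM. Plasma cell genes, with those cells included, were above 0 in 4 of 5 under isotype (median 0.56). Under anti-PD1 4 of 4 were, 3 at least 2-fold (median 1.35). Their part in the list was not tested.

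Under isotype 15 of 23 interferon genes were below 0 (median −0.12 against 0.01 for all genes, of which 48.8% were below 0), 2 at least 2-fold, and under anti-PD1 15 of 25 (median −0.13 against 0.07 and 40.5%), which became 12 of 25 with a median of 0.03 with the cell mean. The 2 genes were Ifit3, at 32.0, 38.9, 8.18 and 22.3 CPM, and Irf7, at 49.1, 42.4, 21.3 and 26.0 CPM. Of 16 marginal zone genes 10 were above 0 under isotype (median 0.02, against 0.01 and 51.2% for all genes), or 6 of 15 with the reduced total (median −0.01) and 8 with the cell mean. Under anti-PD1 8 were above 0, against 59.5% of all genes, or 6 with TMM (median −0.06), and 0 were at least 2-fold apart under either antibody.

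The members of anti-PD1 and isotype mice were compared within each genotype, which asks what blocking PD1 goes with in these cells. These comparisons use the same 4 libraries as those between genotypes. In *Aire*+/+ 28 of 5139 genes differed at least 2-fold (0.545%), 12 higher and 16 lower under anti-PD1. In *Aire*-/- 28 of 5175 did (0.541%), 22 higher and 6 lower, or 17 and 10 with TMM. The median log2 ratio of all genes was −0.01, or 0.01 with the cell mean, and 0.05, or −0.01 with TMM. Fewer genes differed than between genotypes in the main setting. At a minimum of 200 UMIs 2 and 6 genes differed between genotypes, and 1 and 3 between treatments. The difference between these counts was not tested.

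A single gene of 4831 measured in both, Pfdn4, was at least 2-fold higher under anti-PD1 in both genotypes, and 0 were lower in both. Pfdn4, a subunit of the prefoldin chaperone (2:170496428-170519123), had 16, 35, 18 and 41 UMIs, or 11.4, 30.3, 14.7 and 30.5 CPM. Its log2 ratio was 1.41 (0.52 to 2.36) in *Aire*+/+ and 1.05 (0.22 to 1.94) in *Aire*-/-. In follicular-like cells it was −0.02 and −0.07, and in T cells −0.87 and −0.12. The call was lost with TMM and without the Jchain-rich cells, where the second ratio was 0.97.

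Zfp36l2, which promotes decay of mRNA, was at 55.5, 113, 56.5 and 70.6 CPM, with a log2 ratio of 1.03 (0.62 to 1.45) in *Aire*+/+. Tsc22d3 had 0.92 (0.59 to 1.25). Cd83, a surface marker of activated B cells, was at 73.2, 138, 95.8 and 126 CPM, with 0.91 (0.54 to 1.28), and with 0.40 (0.05 to 0.75) in *Aire*-/-. In *Aire*+/+ follicular-like cells Zfp36l2 had 0.96, Tsc22d3 0.52 and Cd83 0.34, and in T cells 0.61, 0.47 and −0.65, so that Cd83 went the other way there. E330020D12Rik was at 35.5, 68.3, 61.4 and 79.5 CPM, with 0.94, where 23 of 79 UMIs of the second library were in 1 cell and the ratio was 0.45 without it, or 0.66 without the richest cell of each library. It had −0.13 in follicular-like cells and −0.00 in T cells.

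Lower under anti-PD1 in *Aire*+/+ was Lyst, a regulator of lysosome traffic, at 67.5, 33.7, 39.3 and 40.1 CPM, with a log2 ratio of −1.0 (−1.58 to −0.45). Srpk2, a kinase of splicing factors, was at 51.2, 26.8, 27.8 and 45.3 CPM, with −0.93. Nolc1, a nucleolar protein, was at 83.2, 45.9, 46.7 and 78.1 CPM, with −0.86. In *Aire*-/- the last pair of genes went the other way, with 0.70 and 0.74. Cbfa2t3, a corepressor, was at 84.6, 46.7, 79.4 and 81.8 CPM, with −0.86, and Stip1 had −0.84. In follicular-like cells of *Aire*+/+ Lyst had −0.09, Srpk2 0.09, Nolc1 −0.11, Cbfa2t3 −0.32 and Stip1 0.08, and in T cells 0.15, 0.02, 0.04, −1.11 and −0.27.

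In *Aire*-/-, Ubb, a polyubiquitin gene, was at 177, 206, 169 and 359.8 CPM, with a log2 ratio of 1.09 (0.86 to 1.34). Eno1b, a near-identical copy of the enolase gene Eno1 with uncertain counts, was at 58.3, 80.5, 60.6 and 139 CPM, with 1.20 (0.80 to 1.61). In both the *Aire*-/- anti-PD1 library was above the other 3. Follicular-like cells of that library were higher too, with ratios of 1.12 for Ubb and 0.79 for Eno1b, and T cells had 1.37 and 0.59. Igha had a ratio of 5.94, or −1.46 without the Jchain-rich cells, from 6 against 15 UMIs. Ccnd2, a cyclin of the first growth phase, had 75, 52, 44 and 95 UMIs with 0.97, of which 21 of the 95 were in 1 cell and the ratio was 0.63 without it, or 1.03 without the richest cell of each library. Brix1, which acts in ribosome assembly, was at 51.2, 45.9, 29.5 and 57.2 CPM, with 0.96. In follicular-like cells Ccnd2 had 0.07 and Brix1 −0.07, and in T cells 0.04 and −0.30.

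Lower under anti-PD1 in *Aire*-/- were Slpi, from single cells, and Sema7a, a membrane-bound semaphorin, at 56.9, 48.4, 86.8 and 48.3 CPM, with a log2 ratio of −0.84 (−1.31 to −0.39). Gna13, the G protein subunit that confines B cells to follicles, was at 39.1, 51.0, 51.6 and 30.5 CPM, with −0.76. Kynu, an enzyme of tryptophan breakdown, was at 56.2, 47.6, 76.9 and 46.1 CPM, with −0.74, and Hmgn3, a nucleosome-binding protein, at 36.3, 37.2, 50.7 and 30.5 CPM, also with −0.74. The first 2 of these levels are those of the *Aire*+/+ libraries, and the *Aire*-/- isotype level was the highest of the 4 for each gene. In follicular-like cells Sema7a had 0.44, Gna13 −0.20, Kynu 0.03 and Hmgn3 −0.07, and Gna13 had −0.09 in T cells.

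The lists are given here beside all genes, whose median log2 ratio under anti-PD1 was −0.01 in *Aire*+/+ and 0.05 in *Aire*-/-, with 48.2 and 58.4% of genes above 0. Of 14 measured immediate early genes 12 were above 0 in *Aire*+/+ (median 0.14) and 10 in *Aire*-/- (median 0.21), or 11 and 10 with the reduced total and 12 and 12 with the cell mean. In the main scaling 0 were at least 2-fold in either, and with the cell mean 2 were in *Aire*+/+. Genes of the endoplasmic reticulum were above 0 in 7 of 27 in *Aire*+/+ (median −0.16) and in 21 of 29 in *Aire*-/- (median 0.16), or in 6 and 19 with the reduced total and 7 and 18 with TMM. Of 16 marginal zone genes 6 were above 0 in *Aire*+/+ (median −0.14) and 5 in *Aire*-/- (median −0.17), or 4 in each of 15 with the reduced total and 6 and 4 with TMM, and 0 passed 2-fold. Of 11 follicular genes 9 and 7 were above 0 (medians 0.19 and 0.08), or 8 and 6 of 10 with the reduced total.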

How the data were processed

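The authors sorted CD45+ or CD8+ cells. The paper describes 10x Chromium 3′ libraries of such cells, and also libraries from another Chromium kit that was used for T cell receptors as well. It does not say which kit gave each table. UMIs were counted per gene and barcode with Cell Ranger. The deposited tables hold these raw counts, and the 4 splenic CD45+ tables were used. A gene symbol was the first part of the row name, and the counts of rows with the same symbol were summed. The members and the gene lists were chosen with earlier results of these data known. Classes were assigned from raw UMIs, and CPM were taken from sums over cells. No filter was set on barcodes beyond the rule.

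The named genes are those of the rule and Aire, the 15 largest and 15 smallest mean log2 ratios between classes (at least 100 UMIs, same sign in every library), the 5 largest ratios in each direction of each comparison of conditions (at least 100 UMIs over the pair), genes at least 2-fold apart the same way in both comparisons of genotype or of treatment (at least 50 UMIs in each pair), and list genes with at least 100 member UMIs. A few genes that the rule names are not reported. Ratios used a floor where a count was 0. Plxnd1 and Rap1gap were described across conditions after their values were seen.

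Analyses ran in Python 3.11.15 (numpy 2.4.6, scipy 1.17.1, pandas 2.3.3, scanpy 1.11.5 for Scrublet) and R 4.3.3 (edgeR 4.0.16 for TMM). Scrublet called 40 of 8686 barcodes, too few for its calls to be taken as the doublets present, so none were removed in the main analysis. Alternatives were other limits of the rule, filters, scalings, thinning and count minimums. Scripts were tested on simulated data.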

Additional observations from a re-analysis of the deposited data

Results flagged for a closer look

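Bcl2a1d differed at least 2-fold between genotypes in opposite directions under the antibodies. Its member UMIs were 47, 22, 19 and 52, and its log2 ratio of *Aire*-/- to *Aire*+/+ was −1.10 under isotype and 1.02 under anti-PD1. The difference between the comparisons was not tested. Bcl2a1d has near-identical copies, so its counts are uncertain. Between the genotype comparisons no gene was opposite with the reduced total, TMM or the cell mean, and 6 were at a minimum of 20 UMIs. Between the treatment comparisons Sertad2 was opposite with the cell mean, and 7 genes were at 20 UMIs.

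Data outside the analysis also held signals. In the splenic CD8+ libraries 8 barcodes met the rule. In the splenic CD45+ libraries, rows for construct sequences, which belong to no mouse gene, had 2 UMIs in the isotype and 4 in the anti-PD1 library of *Aire*+/+ mice, and 3 and 5 in those of *Aire*-/- mice, with 0 in members. Neither was examined further.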

How the results depend on the processing

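Of 156 values of the main results under other settings 53 moved, 103 did not, and 0 reversed. These are shares, ratios of shares and counts of genes. Each ratio of shares had an interval that included 1 in the main setting, so none of them was counted as reversed. The genotype ratio under anti-PD1, 0.963 in the main setting, was above 1 in 3 settings, at 1.13 with cells thinned before the rule, 1.04 with at most 1 UMI of Fcer2a and 1.01 of all barcodes. Medians of lists and of all genes are not among them, and some changed sign. The all-gene median under anti-PD1 in *Aire*-/- was −0.01 instead of 0.05 with TMM, that in *Aire*+/+ 0.01 instead of −0.01 with the cell mean, and that of genotype under isotype −0.02 instead of 0.01 with the reduced total. Of the lists between classes, the Notch2 pathway had 0.03 instead of −0.11, and heat shock 0.07 instead of −0.07, with the reduced total, and both were also above 0 with TMM. The endoplasmic reticulum list had −0.01 instead of 0.02 with the cell mean, and the immunoglobulin list 0.08 instead of −0.03 with TMM. Of 636 values of named genes 29 moved, 1 reversed and 606 did not. The reversed value was the Jchain ratio between classes, −1.44 with at least 2 UMIs of Cr2 and of Mzb1. That count leaves out ratios between conditions that were under 2-fold and settings in which a gene had too few UMIs, and signs changed there too. S100a6 had 0.14 instead of −0.95 between genotypes under isotype, with at least 2 UMIs of Cr2 and of Mzb1. Without the Jchain-rich members, Jchain had −1.78 instead of 7.66 between genotypes under isotype, from 4 against 16 UMIs. Igha had −1.42 instead of 5.96 between genotypes under anti-PD1, from 6 against 14 UMIs. Between treatments in *Aire*-/- Igha had −1.46 instead of 5.94, from 6 against 15 UMIs. These counts are too low to read a direction. For the comparisons of conditions leaving out a library was impossible, with 1 per condition. Between classes no library was left out.

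The share of B cells followed the limits of the rule. It was 12.1, 9.52, 10.7 and 9.05% with at least 2 UMIs of Cr2, and 12.1, 10.4, 11.7 and 10.1% with at least 2 of Mzb1. It was 17.4, 14.6, 17.1 and 13.8% with any Mzb1, and 22.05, 18.1, 20.9 and 18.8% with at most 1 UMI of Fcer2a. As a share of all barcodes it was 9.58, 8.41, 8.89 and 8.45%. With cells thinned before the rule it was 13.3, 9.16, 12.0 and 10.4%, the genotype ratio under anti-PD1 was 1.13 (0.895 to 1.43), and the ratio of anti-PD1 to isotype in *Aire*+/+ was 0.690 (0.546 to 0.871).

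Counts of genes at least 2-fold apart between conditions are given with genotype under isotype, genotype under anti-PD1, treatment in *Aire*+/+ and treatment in *Aire*-/- in turn. Thinned members gave 20, 19, 10 and 8, where fewer genes were measured. A minimum of 20 UMIs gave 267, 281, 221 and 221, and a minimum of 200 UMIs 2, 6, 1 and 3. The cell mean gave 80 for genotype under anti-PD1 and 59 for treatment in *Aire*+/+. Both genotype comparisons shared 1 gene after thinning, 24 at 20 UMIs and 2 at 200 UMIs. Both treatment comparisons shared 9 at 20 UMIs and 0 at 200 UMIs. They also shared 0 with TMM, after thinning, with at least 2 UMIs of Cr2 and of Mzb1, without the Jchain-rich members, and without the 5% of barcodes with the highest Scrublet scores.

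Between classes, thinning gave 38 genes higher and 32 lower. Follicular-like cells with Cr2 and Mzb1 gave 53 higher and 34 lower. The cell mean gave 49 lower, and members with at least 2 UMIs of Cr2 and of Mzb1 178 lower. The settings without Jchain-rich members, without the member richest in a gene, with follicular-like cells restricted to those with Cr2 and Mzb1, and without the highest Scrublet scores were chosen after seeing the data. Where no fewer genes were measured, the cause of a move was not tested.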

Other observations

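The main limits are the single library per condition, the pooling of animals, and a rule that rests on 1 UMI of Cr2 or of Mzb1 in 229 of 766 members. Scrublet scores in the highest 5% of a library fell on 12, 7, 6 and 8 members. A filter of at least 200 genes and at most 20% mitochondrial UMIs would remove 3, 0, 1 and 1 members.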
